A study of Mus musculus with 8 samples.

Results

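The 4 miRNAs described here, miR-128, miR-129-3p, miR-129-5p and miR-218, belong to the 611 mouse miRNAs with probes on the array. They were taken as the rows of the scanner files whose systematic name is mmu-miR-128, mmu-miR-129-3p, mmu-miR-129-5p or mmu-miR-218. They were selected on measured values of these arrays, as neuron-associated miRNAs whose normalized levels had shown no clear difference between the stages and with an eye to their spread within a stage, so that the stage differences below are descriptions and carry no test. The study measured miRNAs in basal progenitors of the mouse cortex, isolated by fluorescence-activated sorting, on embryonic days 13 and 16 of development, called E13 and E16. Each stage had 4 samples, labelled as wild type (WT), and each was read on a separate Agilent array in 1 colour. The design text names 4 biological replicates and 3 litters, so that some replicates of a stage may share a litter. The labels name no treatment, strain or sorting gate, and the markers that define basal progenitors are mRNAs, which these arrays do not measure.

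A miRNA acts as a guide that brings a silencing complex to mRNAs whose 3′ regions pair with its seed, bases 2 to 8 from its 5′ end. Basal progenitors are dividing precursors that lie away from the ventricular surface of the developing cortex and give rise to neurons. miR-128 is enriched in brain and restrains the excitability of mouse neurons. miR-129-5p has been tied to the weakening of synapses in cultured rat neurons. miR-218 is strongly enriched in the motor neurons of the mouse spinal cord. All of them are better known from neurons than from progenitors.

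The mature sequences are shown because each array probe pairs with them and because the seed sets which mRNAs a miRNA can pair with. They come from RefSeq (GRCm38.p6), were matched to the probes by sequence, all 4 of 4 found, and are written 5′ to 3′ with the seed in capitals. miR-129-3p corresponds to the RefSeq entry miR-129-2-3p, miR-128 to miR-128-3p and miR-218 to miR-218-5p.
miR-128: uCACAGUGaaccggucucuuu
miR-129-3p: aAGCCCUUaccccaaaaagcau
miR-129-5p: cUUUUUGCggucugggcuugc
miR-218: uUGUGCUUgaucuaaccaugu
No seed was shared between the 4. In the RefSeq table the seed of miR-218 was also that of 1 further miRNA, miR-7002-3p, which had no probe of that name here. The seeds of miR-27a and miR-27b hold 6 bases of the miR-128 seed, shown in capitals, and are shifted by 1 base against it.
miR-27a: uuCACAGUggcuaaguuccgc
miR-27b: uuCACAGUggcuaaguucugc

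The genes that encode these miRNAs decide what a probe can tell apart. miR-128 is cut from a pair of hairpins with the same mature sequence, shown in capitals, Mir128-1 on chromosome 1 and Mir128-2 on chromosome 9.
Mir128-1: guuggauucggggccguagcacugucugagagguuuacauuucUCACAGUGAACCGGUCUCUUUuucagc
Mir128-2: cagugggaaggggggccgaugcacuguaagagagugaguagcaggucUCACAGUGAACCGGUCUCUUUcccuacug
In the RefSeq annotation of GRCm38.p6 the first overlaps R3hdm1 and the second Arpp21, a gene for a cyclic AMP-regulated phosphoprotein. miR-218 likewise comes from Mir218-1 on chromosome 5, which overlaps Slit2, and Mir218-2 on chromosome 11, which overlaps Slit3. Slit2 and Slit3 encode secreted axon guidance ligands of Robo receptors. The opposite arms of these hairpins, miR-218-1* and miR-218-2*, would have separated the loci, but no probe for either was well above background on any of the 8 arrays. miR-129-5p comes from Mir129-1 on chromosome 6 and Mir129-2 on chromosome 2, whereas the exact sequence probed as miR-129-3p is held by Mir129-2 alone. The Mir129-1 hairpin holds a stretch that differs from it in a single base. Whether the probe tells the 3p arms of these hairpins apart was not tested. The Mir129-2 hairpin holds both arms, in capitals, the 5p arm first, and lies within the bounds of Mir670hg, a long non-coding RNA.
Mir129-2: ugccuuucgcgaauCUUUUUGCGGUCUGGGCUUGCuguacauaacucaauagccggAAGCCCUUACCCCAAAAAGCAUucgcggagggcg

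Each miRNA was read by 2 probes of 10 spots each, nested so that the longer one has 1 more base, shown in capitals, at its 3′ end. The probe letters come from the scanner files, and matches are given in mm9, the build in the file headers.
longer probe of miR-128: aaagagaccggttcactgtG
longer probe of miR-129-3p: atgctttttggggtaagG
longer probe of miR-129-5p: gcaagcccagaccgC
longer probe of miR-218: acatggttagatcaagcacA
The miR-128 probe of 20 bases pairs with bases 2 to 21 of the miRNA and matches chr1:130098982-130099001 (+) and chr9:112021188-112021207 (-). The miR-218 probe of 20 bases also reaches base 2 and matches chr5:48615206-48615225 (+) and chr11:35430343-35430362 (+). The miR-129-3p probe of 18 bases pairs with bases 5 to 22 and is listed at chr2:94081582-94081598 (-), a span 1 base shorter than the probe. The miR-129-5p probe of 15 bases pairs with bases 7 to 21 and matches chr2:94081541-94081555 (-) and chr6:28972630-28972644 (+).

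The arrays differed in brightness, which set how far down these dim miRNAs could be read. The 75th percentile of the background-subtracted signal, taken over 126 probes well above background on all 8 arrays, was lowest on E16 replicate 4 (109) and highest on E16 replicate 2 (748). The E13 arrays gave 162 to 490. The lowest signal of any mouse probe that counted as well above background lay between 7.43 and 11.7 on an array. Between 76 (E16 replicate 4) and 206 (E13 replicate 3) miRNAs were well above background. The arrays lay on 3 slides, each scanned in its own session. Slide 1 held E16 replicate 1, slide 2 held E13 replicates 1 and 2 and E16 replicates 2 and 3, and slide 3 held E13 replicates 3 and 4 and E16 replicate 4. Every E13 array sat in slide row 2 and every E16 array in row 1, so row and stage cannot be told apart. In RNA of a sorted population, fewer cells that hold a miRNA and less of it per cell cannot be told apart either.

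miR-128 was the only one of the 4 miRNAs well above background on every array. Its unscaled signal was 25.3, 64.2, 113 and 66.7 on E13 replicates 1 to 4, and 193, 151, 55.2 and 9.45 on E16 replicates 1 to 4. The highest and the lowest of the 8 values were thus both E16 arrays, and E16 replicate 4 was also the dimmest array. Divided by the array's 75th percentile and put on the log2 scale, where 0 stands for that percentile, miR-128 was at -2.68, -2.30, -2.12 and -2.14 at E13 and at -1.66, -2.30, -2.35 and -3.52 at E16. Scaling brought 6 of the arrays, E13 replicates 2 to 4, E16 replicates 2 and 3 and, less closely, E13 replicate 1, to similar levels, while E16 replicates 1 and 4 stayed on either side of them. The stages overlapped. On E16 replicate 4, 6 of the 9 spots kept were well above background, and its signal of 9.45 was next to the lowest one (9.44) of any probe well above background there, so this value lies at the limit of detection of that array.

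miR-129-3p was well above background on most arrays. Its unscaled signal was 9.07, 21.0, 23.3 and 14.8 at E13 and 31.0, 52.5, 15.3 and 6.76 at E16, and the longer probe was well above background on 6 arrays, all but the 2 dimmest, E13 replicate 1 and E16 replicate 4. After scaling it lay at -4.16, -3.92, -4.40 and -4.32 at E13 and at -4.29, -3.83, -4.21 and -4.01 at E16. The values of E13 replicate 1 and E16 replicate 4 are signals not above background. The stages overlapped.

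miR-129-5p, the other arm of the same hairpin, was near or below the limit of detection on every array. Its unscaled signal was 4.20, 6.21, 8.28 and 5.43 at E13 and 9.30, 12.0, 2.67 and 0.957 at E16. It counted as well above background on E13 replicate 3, where 5 of 10 spots did, and on E16 replicate 2, where 7 of 10 did. Scaled E16 values all fell to the floor of -5.96, which was set for all arrays and below which values have no order, so no difference between the stages is given for this arm. It was well above background on fewer than 4 arrays and was the only one of the 4 miRNAs left out of the 153 that were tested.

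miR-218 was well above background on 1 E13 array and 3 E16 arrays. Its unscaled signal was 5.14, 8.22, 22.0 and 11.9 at E13 and 51.3, 28.2, 13.2 and 1.71 at E16. E13 replicate 3 and E16 replicates 1 to 3 were the arrays above background, while E13 replicate 2, with a higher 75th percentile (317) than E16 replicate 3 (282), was not. E13 replicate 4 fell just short, with 4 of 10 spots well above background, though its scaled value was higher than that of E16 replicate 2. Scaled values were -4.98, -5.27, -4.48 and -4.63 at E13 and -3.57, -4.73 and -4.42 on E16 replicates 1 to 3, with E16 replicate 4 at the floor. E16 replicate 1 was again the highest and replicate 4 the lowest, and the stages overlapped.

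**Figure D1:**
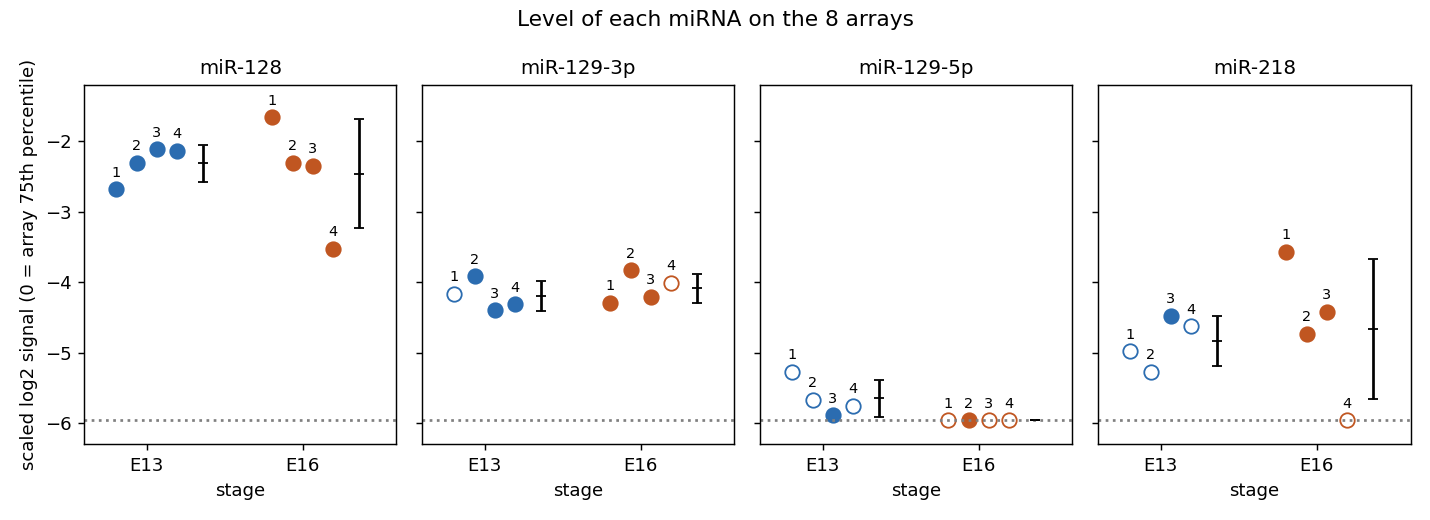
Scaled log2 signal of the leading probe (vertical axis, 0 is the array's 75th percentile) by stage, 1 point per array with its replicate number, filled where well above background. Bars are mean and SD over 4 arrays and the dotted line is the floor at -5.96. With this scaling miR-129-3p keeps to a narrow band, 2 of its points not above background, while miR-128 and miR-218 spread most at E16, from replicate 1 to replicate 4.

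The nested probes gave a second reading of each miRNA within the same array. For miR-128 both probes were well above background on 6 arrays, and the longer one was 2.06 to 2.45 times as bright as the shorter (mean 2.27 ± 0.15, SD, n = 6). For miR-218 both were on 3 arrays, with ratios of 1.67 to 1.82. The probes of a pair thus rose and fell together from array to array, and the SD of their log2 ratio was 0.09 for miR-128 and 0.07 for miR-218. miR-129-3p differed in that its shorter probe was not well above background on any array, with signals of -1.98 to 1.69, while the longer one reached 52.5. Its level here therefore rests on a single probe, and the base that only that probe holds is the last G of the sequence shown above. The shorter miR-129-5p probe was not well above background on any array either (-0.14 to 2.74). Such pairs were not rare. Of 121 pairs on the array that are 1 base apart and whose longer probe was well above background on at least 6 arrays, 11 had a shorter probe above it on none, and in the other 110 the median ratio was 3.11 (quartiles 1.88 and 4.36).

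**Figure D2:**
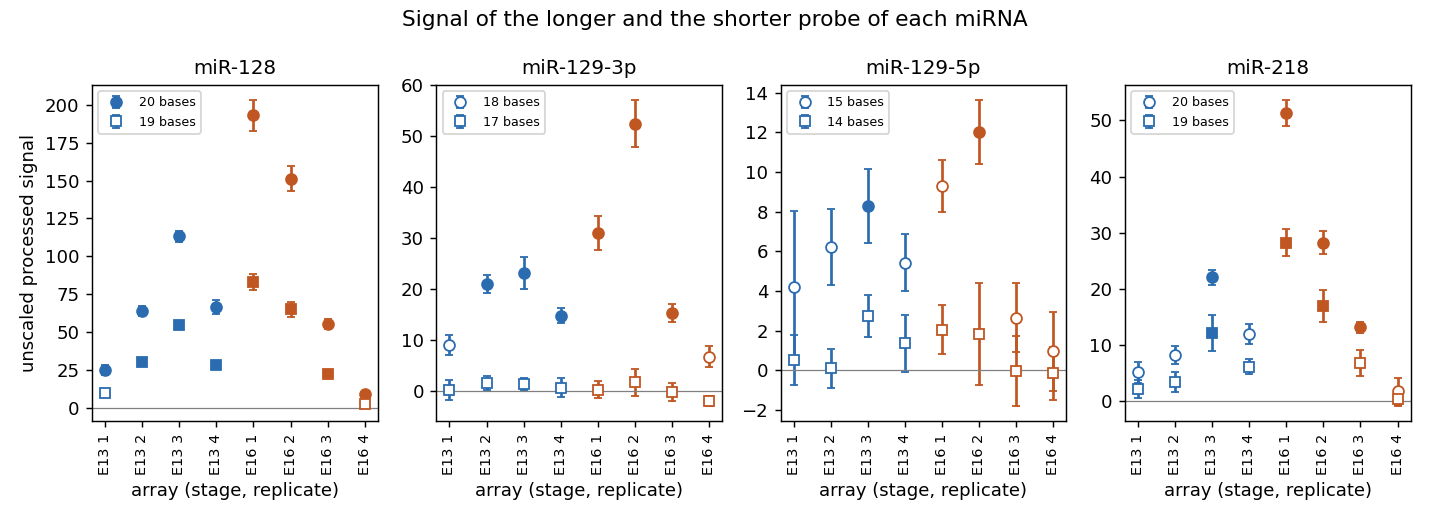
Unscaled processed signal (vertical axis, a different range in each panel) of the longer probe (circles) and the shorter probe (squares) of each miRNA on the 8 arrays, blue for E13 and orange for E16. Error bars are the SD over the spots kept, and filled symbols are well above background. The pairs of miR-128 and miR-218 move together, while the shorter probe of miR-129-3p stays near 0 where the longer one reaches 52.5.

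Replicate spots gave the error within an array, which the choice of these miRNAs did not use. Among the spots of the leading probe the coefficient of variation had a median of 5.83% over the arrays for miR-128 (3.27% to 13.7%), 11.2% for miR-129-3p (8.42% to 30.2%) and 11.1% for miR-218 (4.40% to 138%). As a standard error of the probe's log2 value this was 0.02 to 0.06 for miR-128 and 0.04 to 0.14 for miR-129-3p. For miR-218 it was 0.02 to 0.17 on the first 7 arrays and 0.63 on E16 replicate 4. Spot error leaves out labelling, hybridisation and the brightness of the array, so it does not measure the error between samples.

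Spread among the arrays of a stage differed between these miRNAs and was named when they were chosen, so it is a description as well. miR-128 had an SD of 0.26 at E13 and 0.78 at E16 (n = 4 each), 2.97 times as large. miR-218 had an SD of 0.36 at E13 and 0.99 at E16, the latter with 1 value at the floor. miR-129-3p had an SD of 0.21 at both stages, with 1 array per stage not above background. That low value depends on the scaling. With quantile normalization the SD of miR-129-3p was 0.50 at E13 and 0.65 at E16, against 0.25 and 0.68 for miR-128, and with every mouse probe counted in the percentile its E13 SD was 0.42, against 0.41 for miR-128. Among the 75 miRNAs that every array showed well above background the median SD was 0.26 at E13 and 0.32 at E16, and 74.7% of them had a larger SD at E16. By size of SD, miR-128 was number 36 of these 75 at E13 and number 11 at E16. Without E16 replicate 4 its E16 SD was 0.39, and that of miR-218 was 0.60. Without E13 replicate 1 the E13 SD of miR-128 was 0.10, and without E13 replicate 2 that of miR-129-3p was 0.12.

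**Figure D3:**
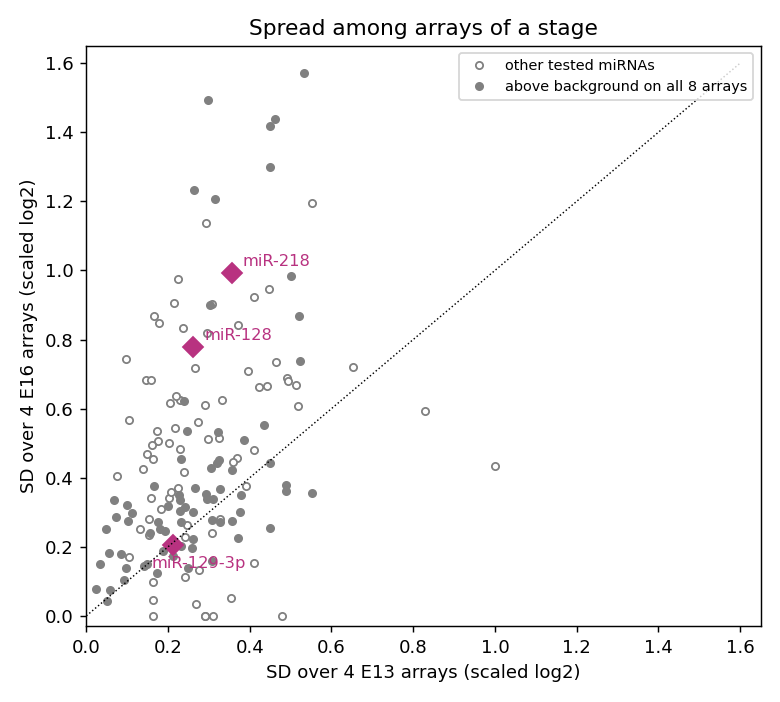
SD of the scaled log2 signal over the 4 E13 arrays (horizontal axis) and over the 4 E16 arrays (vertical axis), 1 point per tested miRNA, filled grey where well above background on all arrays, diamonds for the miRNAs described here. The dotted line marks equal SDs. miR-128 and miR-218 lie well above it at E16 SDs of 0.78 and 0.99, miR-129-3p on it at 0.21 with this scaling.

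The E16 spread came mainly from replicates 1 and 4, which were singled out after the values were seen. miR-128 was 1.87 log2 units, or 3.65-fold, higher on replicate 1 than on replicate 4. Across the same 75 miRNAs this difference had a median of 0.36 and quartiles of -0.33 and 0.75. Among them miR-124, an abundant neuronal miRNA, alone exceeded miR-128, at 2.19. To be among the 75 a miRNA had to be above background on replicate 4 itself. Those that fell below it there are thus left out of this order. miR-218, which is not among the 75, differed by 2.39, with replicate 4 at the floor. Among the other tested miRNAs outside the 75 this difference ran from -2.55 (miR-466g) to 2.74 (miR-33), with miR-27b at 2.17. Replicate 4 showed only 76 miRNAs above background, the 75 among them, so nearly all of these other differences hold a value not above it. Within the 75, miR-124 and, in the other direction, miR-690 at -3.82 also differed widely. A large difference is thus not particular to miR-128 and miR-218. miR-129-3p was not above background on replicate 4 (1 of 10 spots), so its difference of -0.29 is no measured contrast to miR-128. Another scaling factor moves all differences between values above the floor by the same amount. Replicate 1 was the brighter array by its 75th percentile (609 against 109) and had 162 miRNAs above background against 76, and the part of brightness in this difference was not tested.

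**Figure D4:**
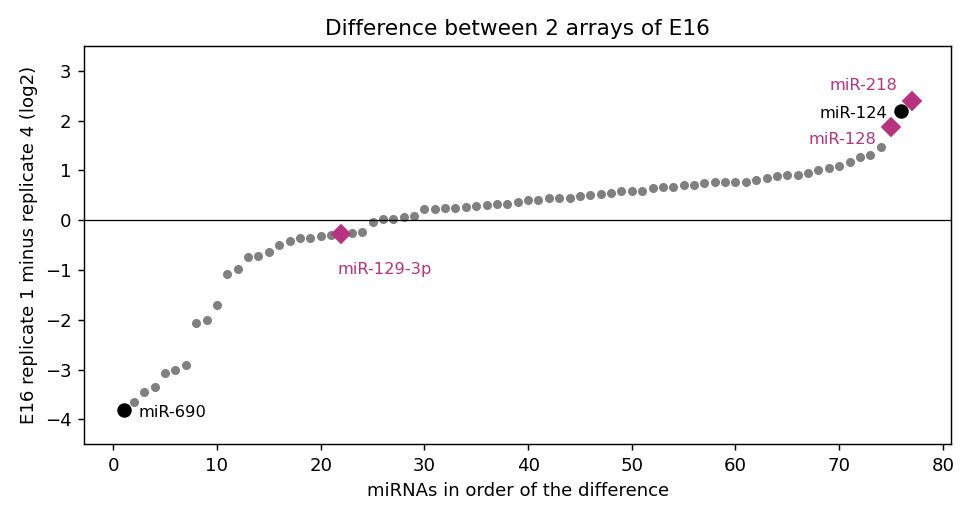
Scaled log2 signal of E16 replicate 1 minus E16 replicate 4 (vertical axis) for those 75 miRNAs plus miR-129-3p and miR-218, sorted from low to high. Diamonds mark the miRNAs described here. miR-218 (2.39, floored), miR-124 (2.19) and miR-128 (1.87) stand at the upper end and miR-690 at -3.82 at the lower. Other tested miRNAs outside the 75 are not drawn, among them miR-33 at 2.74 and miR-466g at -2.55. Nearly all of them were not above background on replicate 4.

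The ratio of 2 miRNAs within an array does not depend on scaling, and was compared for the 3 pairs with at least 4 arrays. Over the 4 arrays where both were well above background, the log2 ratio of miR-128 to miR-218 had an SD of 0.24 and a range of 1.43-fold. The ratio of miR-218 to miR-129-3p ranged 3.08-fold over the same number of arrays (SD 0.67), highest on E16 replicate 1 and lowest on E16 replicate 2. The ratio of miR-128 to miR-129-3p ranged 2.16-fold over 6 arrays (SD 0.43), with the same arrays at its ends. E16 replicate 4 does not enter these ratios, since miR-129-3p and miR-218 were not above background there.

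Between the stages the means of the 3 miRNAs for which a difference is given lay close together. miR-128 had a mean of -2.31 ± 0.26 at E13 and -2.46 ± 0.78 at E16 (SD, n = 4 each), a difference of -0.15 (E16 minus E13, SE 0.41). miR-129-3p, above background on 3 arrays per stage, had means of -4.20 ± 0.21 and -4.09 ± 0.21 and a difference of 0.11 (SE 0.15). miR-218 had means of -4.84 ± 0.36 and -4.67 ± 0.99 and a difference of 0.17 (SE 0.53). Only 1 of its E13 arrays and 3 of its E16 arrays were above background, and 1 E16 value was at the floor. Its means are therefore limits of detection more than levels, and the size of the difference is not exact. Each difference was smaller than its SE, which is what these miRNAs were picked for, and does not show that the levels were equal.

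The slides gave different values for miR-128 and miR-218. Within slide 2, which held E13 replicates 1 and 2 and E16 replicates 2 and 3, miR-128 differed by 0.16 and miR-218 by 0.55. On neither of these E13 arrays was miR-218 above background. Within slide 3 miR-128 differed by -1.40. For miR-218 the value was -1.41, a limit set by the floor and not a measured difference. On this slide E16 replicate 4 is the only E16 array, so that this array and the stage cannot be told apart within the slide. With the slide as a block, a fit to which E16 replicate 1, alone on its slide, adds nothing, they were -0.46 and -0.23. miR-129-3p stayed positive, at 0.02 within slide 2, 0.35 within slide 3 and 0.15 with the block. It was not above background on E13 replicate 1 of slide 2 or on E16 replicate 4 of slide 3. Its values are thus no measured differences either. Without E16 replicate 4 miR-128 turned to 0.21 and miR-218 was at 0.60, and without E16 replicate 1 they were at -0.42 and -0.20.

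The values also moved with the scaling. With a 75th percentile that counted every mouse probe, including those near background, the differences were 0.67 for miR-128, 0.93 for miR-129-3p and 0.98 for miR-218, and the median of all tested miRNAs moved from -0.40 to 0.41. Set against that median, miR-128 was 0.25 above it as scaled here and 0.26 above it with the other percentile, miR-129-3p 0.51 and 0.52, and miR-218 0.57 in both. Both settings divide an array by a single factor, so apart from the floor this likeness follows from the arithmetic and is no separate result. In the authors' deposited value table, which held 7 spots of the longer miR-128 probe and no spot of the other 3 miRNAs, miR-128 differed by -0.13.

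**Figure D5:**
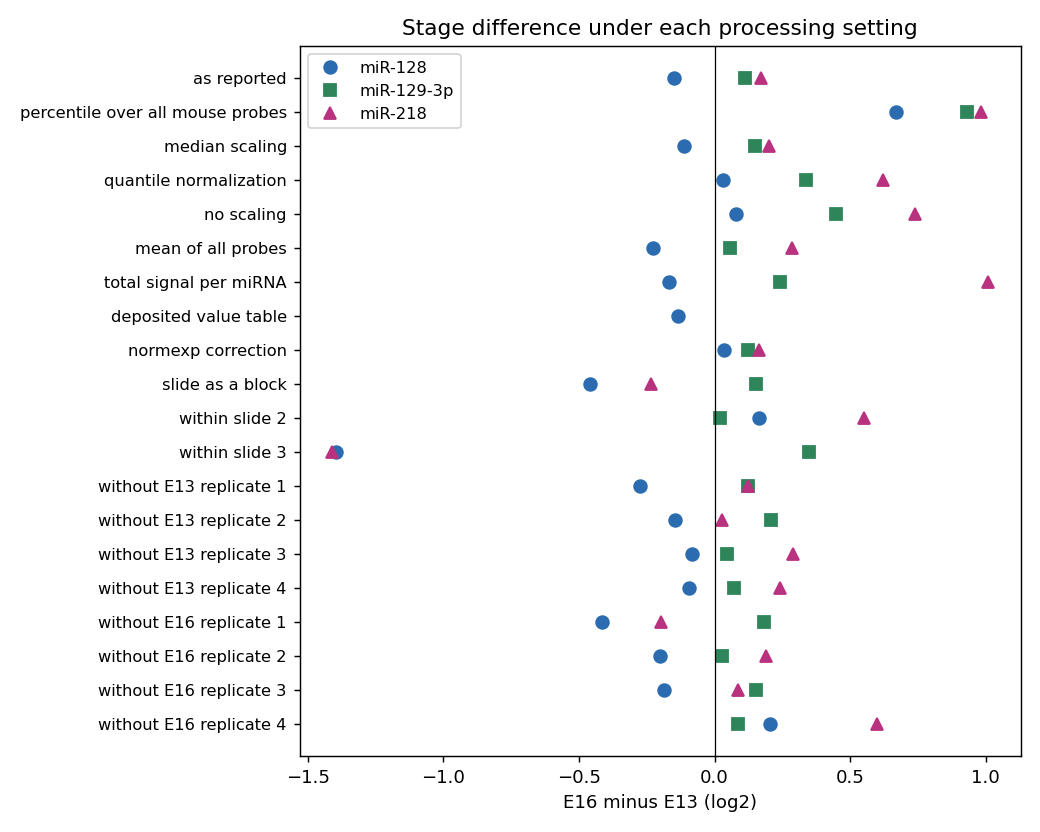
E16 minus E13 difference (horizontal axis, log2) of miR-128 (circles), miR-129-3p (squares) and miR-218 (triangles) under each processing setting (vertical axis). miR-129-3p stays between 0.02 and 0.93, while miR-128 and miR-218 change sign between settings and reach -1.40 and, with the E16 value at the floor, -1.41 within slide 3.

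The miRNAs most like miR-128 were sought among the 74 others well above background on all arrays, by the Pearson correlation over 8 arrays of values centred within each stage. They were miR-24 (r = 0.95, Spearman's rho 0.90), let-7g (0.90, rho 0.67) and miR-151-5p (0.90, rho 0.74). miR-24 is encoded beside miR-27 genes, and let-7g belongs to the let-7 family, which accumulates as cells mature. The median over the 74 was 0.58. All miRNAs of an array share its scaling, and the 3 were picked as the highest, so no test is attached. Without E16 replicates 1 and 4, the arrays farthest from the median of miR-128, the correlations were 0.59, 0.73 and 0.34. The likeness of miR-151-5p and, in part, miR-24 thus rests on those arrays, and that of let-7g less so. Without them let-7i and miR-690 reached 0.88 each, above let-7g, although miR-690 was at -0.76 over 8 arrays. A correlation of this size on so few arrays does not mark let-7g as more like miR-128 than others. miR-27a and miR-27b, whose seed overlaps that of miR-128, were each well above background on 6 arrays. Their differences between the stages, 0.43 (SE 0.37) and -0.08 (SE 0.40), did not pass the test in limma (adjusted p = 0.37 and 0.90).

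The other neuron-associated miRNAs give the setting for these 4. Of 15 listed, 9 were well above background on at least 4 arrays and tested, and the other 6 (miR-7b, miR-132, miR-212, miR-134 and both arms of miR-138) were not above background on any array. In limma 5 of the 9 were lower at E16 and 0 were higher. Of all 153 tested miRNAs 33.3% passed the test, 26.1% as lower and 7.19% as higher at E16. miR-7a, abundant in neurons and endocrine cells, fell by 1.86 (SE 0.18, adjusted p = 5.8e-05), miR-135a by 1.50 (SE 0.32, adjusted p = 0.0052), miR-137 by 1.02 (SE 0.30, adjusted p = 0.026, with 1 E16 value at the floor) and miR-124* by 0.86 (SE 0.18, adjusted p = 0.0054). miR-153 was above background on 4 E13 arrays and no E16 array, so it passed (adjusted p = 2.6e-05) without a measured E16 level, and no size is printed for it. The 4 that did not pass were miR-124 (-0.07, SE 0.41), miR-9 (-0.09), miR-9* (0.33) and miR-135b (-0.31). The list median was -0.86 against -0.40 for all tested miRNAs. When every mouse probe counted in the percentile, 2 of the 9 were lower and 2 higher, against 16 and 47 of all 153. Without scaling 0 of the 9 passed in either direction, against 1 of all 153. With the total signal per miRNA 1 of the 9 was lower, against 8 of all 153. In these settings the list median was -0.04, -0.19 and -0.87, against 0.41, 0.003 and -0.40 for all tested miRNAs. Within slide 2, with 2 arrays per stage, 2 of the 9 were lower, against 25 of all 153 (medians -0.69 and -0.28). Within slide 3 the list median was -1.29 against -0.76 for all tested miRNAs. The only E16 sample there is replicate 4, the dimmest array. The arms of the miR-124 hairpin gave -0.07 and -0.86, and the difference between the arms was not tested.

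The order of the E16 arrays seen for miR-128 and miR-218 also held for part of this list. Of the 8 listed miRNAs with any E16 value above the floor, 5 were highest on E16 replicate 1 and 7 lowest on replicate 4, all but miR-135a. Of these, miR-124*, miR-7a, miR-137 and miR-135a were above background on only 3 E16 arrays, and miR-137 was at the floor on replicate 4. Among the 75 miRNAs above background on all arrays, which are thus not a like set, 34 were highest on replicate 1 and 46 lowest on replicate 4. miR-124 had E16 values of 0.36, -0.84, -0.57 and -1.83 and an SD of 0.90 against 0.30 at E13, with the same arrays at its ends as miR-128.

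Nearly all markers of other cells gave no signal well above background. On a single array most of the 611 mouse miRNAs were not detected either. Single arrays detected from 76 (E16 replicate 4) to 206 (E13 replicate 3). The share of the 611 detected on no array is not given here. In the neuron-associated list, 6 of 15 were likewise detected on no array. Whether the other cells were absent was not tested. None of 3 red blood cell, 2 endothelial, 3 microglial and leukocyte, 5 mesenchymal, 4 muscle and 4 hindbrain and spinal cord miRNAs was well above background on any array, and among the last were miR-10a, miR-10b, miR-196a and miR-196b, which mark the regions where motor neurons rich in miR-218 lie. Of the oligodendrocyte lineage, miR-219 and miR-338-3p were detected, though not on every array. At E13 miR-219 was detected on 4 arrays and miR-338-3p on 2, and at E16 each on 3. As a ratio to the array's 75th percentile, their summed level was 0.16 to 0.24 at E13 and 0.10 to 0.26 at E16. Neither passed the limma test between the stages (adjusted p = 0.25 and 0.47). Among the E16 arrays both were highest on replicate 1 and lowest on replicate 4. Their scaled values on replicate 4, -3.75 and -5.46, lay below the lowest one well above background there (-3.53). The low end of this order is thus a limit of detection and no measured level. The part of miR-219 and miR-338-3p in the E16 order of miR-128 and miR-218 was not tested.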

How the data were processed

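Per the labels' protocols, total RNA of sorted basal progenitors received a Cy3 label and each sample went onto a one-colour Agilent miRNA array. The authors deposited 1 scanner file per array, made with Agilent Feature Extraction 10.7.3.1 per the file headers and the submitters' processing notes, with mm9 as build. Per the file headers, the authors deposited intensity values that the scanner software had computed by subtracting background from each spot, with a total intensity per miRNA and background flags, none scaled between arrays. The authors also deposited a table of log2 values covering 1187 spots, in which the sorted columns nearly coincide (largest gap 0.0052) and each column ranks spots as that array's processed signal does (Spearman's rho 1). The sources used here do not give its normalization, and it served as an alternative.

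Control spots and spots with an outlier flag (2.01% to 3.86% per array) were left out, no spot was saturated, and the 10 spots of a probe were averaged. A probe was well above background where a share of at least 0.5 of its spots was, and a miRNA where any of its probes was. Signals were divided by the array's 75th percentile over 126 probes well above background on all 8 arrays, floored at percentile 1 of signals well above background (log2 -5.96) and put on the log2 scale. The probe with the highest mean stood for its miRNA. The 153 miRNAs with a probe above background on at least 4 arrays were fitted with limma 3.58.1 in R 4.3.3 (two-sided, Benjamini-Hochberg, threshold 0.05), and the fit was tested on simulated data. As the 4 miRNAs were picked on the stage contrast, they get means, SDs and a standard error without a test. The number of arrays limits the precision. p-values rest on the spread between samples that may share litters. The named miRNAs are the 4, 15 further neuron-associated ones, the other hairpin arms, miR-27a and miR-27b, and the 3 most like miR-128 among those above background on all arrays. Members, lists and tests were chosen with earlier results of these data known. Alternatives were other scalings, normexp correction with quantile normalization, other summaries per miRNA, other filters, slide and replicate blocks and leaving out each array with scaling and tested miRNAs kept.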

Additional observations from a re-analysis of the deposited data

How the results depend on the processing

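Against 51 miRNAs called between the stages as reported (11 higher and 40 lower at E16), 102 were called within slide 3, where the only E16 sample is replicate 4 and is assumed to vary like the 2 E13 arrays there, 34 within slide 2, 24 with the deposited value table, 19 among miRNAs above background on all 8 arrays, 14 with the scanner's total per miRNA, and 1 when nothing was scaled. Leaving out 1 array gave 38 to 71, the highest without E16 replicate 4. When every mouse probe counted in the percentile, 47 were higher and 16 lower. Quantile normalization gave 14 and 24, normexp correction 14 and 29, the total signal 6 and 8, and the deposited values 13 and 11. With the replicate number as a block 45 were called. The same-numbered arrays' deviations correlated at -0.08, 0.07, 0.27 and -0.13, and no array of E13 correlated best with its own number at E16. So few values cannot decide whether the numbers pair samples. The difference of miR-128 was 0.67 when every mouse probe counted and -1.40 within slide 3, and without single arrays -0.42 to 0.21. That of miR-218 was 0.98 and, at the floor, -1.41 in these settings and 1.01 with the scanner's total, and -0.20 to 0.60 without single arrays. That of miR-129-3p was 0.93 and 0.35 in the first pair of settings, 0.34 with quantile normalization, 0.45 without scaling and 0.03 to 0.21 without single arrays. The E13 SD of miR-128 was 0.41 with every mouse probe counted and 0.10 to 0.32 without single arrays, and its E16 SD 0.39 to 0.95. The E13 SD of miR-129-3p was 0.42 in that setting, 0.50 with quantile normalization and 0.12 to 0.26 without single arrays, and its E16 SD was 0.65 with quantile normalization. The E16 SD of miR-218 was 0.60 to 1.21 without single arrays. The cause of these shifts was not tested. Of 119 values under an alternative, 97 stayed near the reported one, within 1 SD for a difference and 1.5 times for a count or a spread. With signals of 0.957 to 52.5, miR-129-3p, miR-129-5p and miR-218 lay near background on several arrays, and values there are limits of detection more than levels.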
